A study of Mus musculus with 12 samples.

Results

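The Ifi200 cluster is a run of PYHIN family genes on mouse chromosome 1, and 8 of its genes are described here in brain myeloid cells of tau transgenic mice: Ifi203, Ifi204, Ifi207, Ifi209, Ifi211, Ifi213, Mndal and Aim2. They were listed by name and found by Entrez gene number as 8 of the 36528 gene numbers in the deposited tables. The rule uses no measured value, but the members were chosen with earlier results of these data known. The data are RNA-seq libraries of Cd11b+ cells sorted from the brains of male mice at 6 months of age. One group of 6 libraries carried the genotype hMAPT-P301S, a human tau transgene with the P301S change, which causes an inherited tauopathy in people. The other 6 libraries, labelled Non-Tg, came from littermates without the transgene. The labels used here do not state the transgene's promoter or line, and the human transcript was not analysed. Each library has its own sample identifier, but no label ties it to a single animal, so p-values reflect only how these libraries vary, which may be technical.

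PYHIN proteins join a pyrin domain, which binds other pyrin domains, to HIN domains, which bind double-stranded DNA. AIM2 is the cytosolic member that recruits the adaptor ASC (gene Pycard) and caspase-1 into an inflammasome, which matures interleukin-1β and interleukin-18. Several Ifi200 proteins are nuclear or shuttle between nucleus and cytoplasm, act on transcription or feed into the cGAS and STING pathway, and are induced by type I interferon in macrophages. The mouse locus expanded by duplication, so its genes share long stretches of sequence.

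The libraries held between 1196069 and 4145069 counts, with means of 2045920 ± 825125 (SD, n = 6) in Non-Tg and 2923580 ± 809066 in hMAPT-P301S (2-sided exact permutation test, p = 0.0952). Mitochondrial genes took 15.5% ± 3.36 of counts in Non-Tg and 25.0% ± 6.91 in hMAPT-P301S (exact permutation test adjusted over 3 measures, p = 0.0292). The nuclear RNA Malat1 took 14.7% ± 2.39 and 9.51% ± 1.04 (same test, adjusted p = 0.00649). All 10 microglia markers were detected, and their summed level was 9507 to 12737 CPM (counts scaled to library depth with TMM factors) in Non-Tg and 4500 to 6779 in hMAPT-P301S, where P2ry12, Tmem119, Cx3cr1, Siglech and Gpr34 fell. Summed CPM in Non-Tg and hMAPT-P301S were 147 to 338 and 117 to 227 for border macrophage markers and 17.8 to 335 and 20.3 to 79.0 for monocyte markers. They were 0.914 to 76.3 and 1.61 to 23.9 for neutrophils, 0 to 32.9 and 0.321 to 16.5 for T and NK cells, 2.74 to 24.2 and 0 to 18.7 for B cells, and 23.2 to 109 and 8.95 to 66.1 for dendritic cells. They were 56.5 to 166 and 27.5 to 148 for neurons, 124 to 692 and 154 to 709 for astrocytes, 185 to 365 and 184 to 503 for oligodendrocytes, and 4.46 to 111 and 6.25 to 28.5 for endothelial cells. Many genes in these lists of 7 to 9 were not tested. Tested were 4 for border macrophages, 3 for monocytes, 1 for neutrophils and 3 for dendritic cells, and 0 for T and NK cells and for B cells. For neurons, astrocytes, oligodendrocytes and endothelial cells, 2, 6, 6 and 2 were tested. Of the tested genes, only the astrocyte gene Gfap was called (log2 fold change 2.65 ± 0.67, edgeR adjusted p = 0.0199), where 3.87% of all genes were called. The monocyte markers Ly6c2, Plac8 and Treml4 had 1, 3 and 7 counts over all Non-Tg libraries and 0 in hMAPT-P301S, while Nkg7 and Cldn5 had none in any library. The part of mitochondrial, Malat1 and marker levels in the results below was not tested, beyond a fit with the mitochondrial share as a covariate.

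Of the 8 cluster genes, Ifi207, Ifi204 and Ifi209 rose in hMAPT-P301S libraries, none fell, and 5 did not pass the test. The rises were 9.40-fold for Ifi207, 3.67-fold for Ifi204 and 5.15-fold for Ifi209, as ratios of mean CPM. All 8 passed the low-count filter. With edgeR's quasi-likelihood test and Benjamini-Hochberg adjustment over 10022 genes, 2.37% of all genes rose, 1.5% fell and 3.87% were called in either direction. The same 3 members had all 6 hMAPT-P301S libraries above all 6 Non-Tg libraries, which held for 2.24% of all genes tested, and none lay wholly below (1.05% of all genes). Fold changes were positive for 7 of 8 members, with a median of 1.31 on the log2 scale, against 4895 of 10022 genes and a median of -0.02. Because the members were chosen with earlier results of these data known, these counts only describe them and were not tested. In bulk RNA of sorted cells, a change in the share of cells that express a gene and a change in its RNA per cell cannot be told apart.

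**Figure D1:**
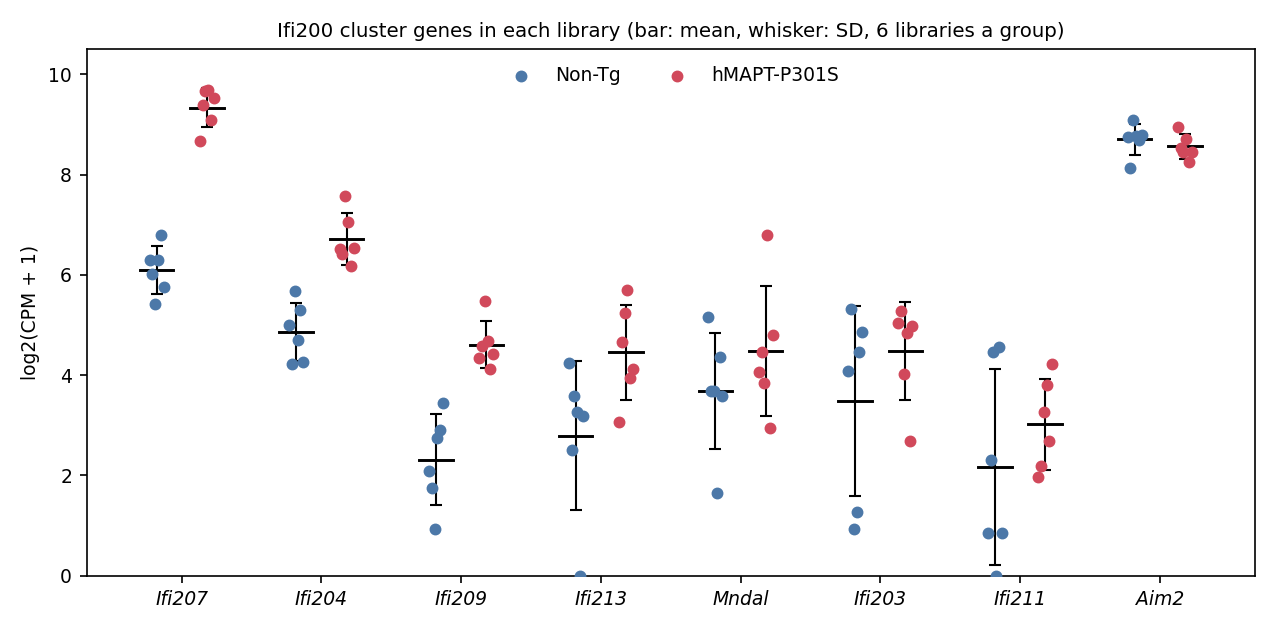
Level of each cluster gene in each library as log2(CPM + 1), with Non-Tg in blue and hMAPT-P301S in red (6 libraries each), the mean as a bar and the SD as a whisker. Ifi207, Ifi204 and Ifi209 show groups that do not overlap, and the points of Aim2 overlap.

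Ifi207 (Entrez 226691, GRCm38.p6 chr1:173723424-173741831, minus strand), a family member with a long repeat-rich linker that has been tied to STING signalling, changed most. In Non-Tg its lowest, median and highest levels were 42.0, 70.6 and 110 CPM, and in hMAPT-P301S they were 406, 703 and 824 CPM. The lowest hMAPT-P301S library, number 1, thus lay far above the highest Non-Tg library, number 5. The means were 70.6 ± 23.6 and 664 ± 163 CPM (SD, n = 6), from 46 to 198 counts and 1262 to 2708 counts per library. The log2 fold change was 3.23 ± 0.25 (95% interval 2.73 to 3.74, edgeR adjusted p = 5.79e-10), and by p-value the gene ranked 4 among the 10022 tested. It was called under each of 24 other settings, with log2 fold changes from 2.84 to 3.41.

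Ifi204 (Entrez 15951, chr1:173747293-173767069) encodes p204, the mouse protein most often compared with the human DNA sensor IFI16, and lies next to Ifi207. Its lowest, median and highest levels were 17.7, 27.9 and 50.3 CPM in Non-Tg and 71.4, 91.2 and 190 CPM in hMAPT-P301S. The groups did not overlap, and hMAPT-P301S 3 was the highest library. The means were 30.01 ± 12.6 and 110 ± 44.2 CPM, a log2 fold change of 1.89 ± 0.35 (1.17 to 2.60, edgeR adjusted p = 0.00112). With the mitochondrial share as a covariate, an alternative chosen after seeing the data, the fold change was 1.35 and the adjusted p was 0.0801.

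Ifi209 (Entrez 236312, chr1:173630859-173647928), also known as Pyhin1, was a low-level gene that rose. Its lowest, median and highest levels were 0.914, 4.47 and 9.93 CPM in Non-Tg, from 1 to 37 counts, and 16.5, 21.7 and 43.8 CPM in hMAPT-P301S, from 38 to 86 counts. Non-Tg 6 was the highest Non-Tg library and still lay below hMAPT-P301S 5, the lowest of its group. The means were 4.77 ± 3.27 and 24.6 ± 9.84 CPM, a log2 fold change of 2.33 ± 0.61 (1.07 to 3.59, edgeR adjusted p = 0.0281). The adjusted p was above 0.05 without Non-Tg 1 (0.0539), Non-Tg 2 (0.0551) or hMAPT-P301S 3 (0.0957), without the 3 shallowest libraries together, Non-Tg 3, 4 and 5 (0.137, chosen after seeing the data), and with the mitochondrial covariate (0.198). The fold change in those fits stayed between 2.11 and 2.23 on the log2 scale.

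Ifi213 (Entrez 623121, chr1:173566280-173599348) had a positive fold change that missed the threshold. Its lowest, median and highest levels were 0, 8.30 and 17.9 CPM in Non-Tg and 7.39, 20.4 and 51.0 CPM in hMAPT-P301S. The groups overlapped: Non-Tg 1 was higher than 3 of the hMAPT-P301S libraries, hMAPT-P301S 1 was lower than 4 of the Non-Tg libraries, and Non-Tg 5 held no count. The log2 fold change was 1.56 ± 0.67 (0.19 to 2.93, unadjusted p = 0.0274, edgeR adjusted p = 0.232). With Ifi213, 4 members passed an unadjusted p of 0.05 with a higher level, against 8.02% of all genes. With the mitochondrial covariate the value for Ifi213 was 0.28 (adjusted p = 0.938).

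Mndal (Entrez 100040462, chr1:173857215-173880382), named for its likeness to the myeloid nuclear differentiation antigen, varied more within hMAPT-P301S than between groups. Its lowest, median and highest levels were 2.14, 11.8 and 34.5 CPM in Non-Tg and 6.66, 18.3 and 110 CPM in hMAPT-P301S. The highest value came from hMAPT-P301S 4, and the next library of that group was at 26.9 CPM. The log2 fold change was 1.07 ± 0.63 (-0.23 to 2.37, edgeR adjusted p = 0.444), and without hMAPT-P301S 4 it was 0.16 (adjusted p = 0.941).

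Ifi203 (Entrez 15950, chr1:173920400-173942866) lay at similar levels in both groups. The lowest, median and highest levels were 0.914, 18.5 and 38.8 CPM in Non-Tg and 5.39, 29.1 and 38.0 CPM in hMAPT-P301S. Non-Tg 3 and Non-Tg 4, both of low depth, held 1 and 2 counts, and the other 4 lay between 15.8 and 38.8 CPM, within or just above the range of the transgenic group. The log2 fold change was 0.47 ± 0.65, with a 95% interval of -0.86 to 1.79 that spans a decrease and an increase (edgeR adjusted p = 0.811), and without the 3 shallow libraries it was -0.15.

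Ifi211 (Entrez 381308, chr1:173896339-173913087), for which RefSeq lists Mnda as a synonym, was the least precise member. Its lowest, median and highest levels were 0, 2.37 and 22.7 CPM in Non-Tg and 2.89, 7.03 and 17.7 CPM in hMAPT-P301S. The Non-Tg libraries were split, with numbers 3 and 5 at 21.0 and 22.7 CPM and the other 4 at or below 3.92 CPM. The log2 fold change was 0.10 ± 0.88 (-1.72 to 1.91, edgeR adjusted p = 0.977), and its sign turned on leaving out any of 6 libraries (Non-Tg 1, 2, 4 or 6, hMAPT-P301S 4 or 6). Without the 3 shallowest libraries, which include both high ones, it was 2.19 (adjusted p = 0.449).

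Aim2 (Entrez 383619, chr1:173349547-173466040, plus strand) was the most abundant cluster gene in Non-Tg and ranked 266 of 10022 tested genes by mean CPM there. Its lowest, median and highest levels were 279, 431 and 545 CPM in Non-Tg and 305, 360 and 493 CPM in hMAPT-P301S. All 6 hMAPT-P301S libraries fell inside the Non-Tg range. The means were 423 ± 85.1 and 381 ± 66.2 CPM, a log2 fold change of -0.15 ± 0.19 (edgeR adjusted p = 0.794). The 95% interval of -0.54 to 0.24 is the narrowest among the members and holds neither a rise nor a fall of 2-fold. Its annotated span overlaps that of Cadm3 on the other strand (chr1:173331892-173368139), which was lower in hMAPT-P301S at 34.9 ± 59.8 against 3.78 ± 2.00 CPM without passing the test (adjusted p = 0.0596), and the labels used here do not state whether counting used strand.

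Levels of different genes were compared on the authors' adjusted RPKM (reads scaled by gene length and library depth), which divides by gene length. Sequence shared between genes, described below, may lower these levels, most of all for Ifi211. In Non-Tg the order of medians was Aim2 at 14.2 RPKM, Ifi207 at 4.36, Ifi204 at 1.51, Mndal at 0.760, Ifi203 at 0.692, Ifi213 at 0.690, Ifi209 at 0.288 and Ifi211 at 0.190. Only the top pair, Aim2 above Ifi207, had ranges that did not overlap, and no other neighbours in the order could be separated by range. In hMAPT-P301S the order was Ifi207 at 43.3 RPKM, Aim2 at 11.8, Ifi204 at 4.88, Ifi213 at 1.70, Ifi209 at 1.39, Mndal at 1.16, Ifi203 at 1.10 and Ifi211 at 0.566. Here Ifi207 stood above Aim2 in all 6 libraries with no overlap, and the neighbours below them overlapped again. This order rests on the gene lengths behind the RPKM, which were not checked. By CPM, which does not divide by length, hMAPT-P301S 1 had 406 for Ifi207 and 493 for Aim2. Ifi207 was the higher by CPM in the other libraries of that group. The ratio of Ifi207 to Aim2 RPKM ran from 0.145 to 0.501 in Non-Tg (mean 0.330 ± 0.130) and from 1.55 to 4.37 in hMAPT-P301S (3.39 ± 0.975).

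The summed RPKM of the 8 genes was 17.0 to 27.0 per library in Non-Tg (23.2 ± 3.89) and 49.8 to 89.4 in hMAPT-P301S (67.1 ± 15.5), a ratio of 2.89 with no overlap. Ifi207 made up 19.1% ± 5.81 of that sum in Non-Tg and 61.2% ± 6.26 in hMAPT-P301S. Aim2 made up 59.9% ± 7.29 and 19.6% ± 6.42. These shares too rest on the gene lengths behind the RPKM, which were not checked. Without Ifi207 the sum was 18.8 ± 3.77 and 25.9 ± 6.67 RPKM, a ratio of 1.37, and the groups overlapped. Most of the difference in the summed level was thus in Ifi207.

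**Figure D2:**
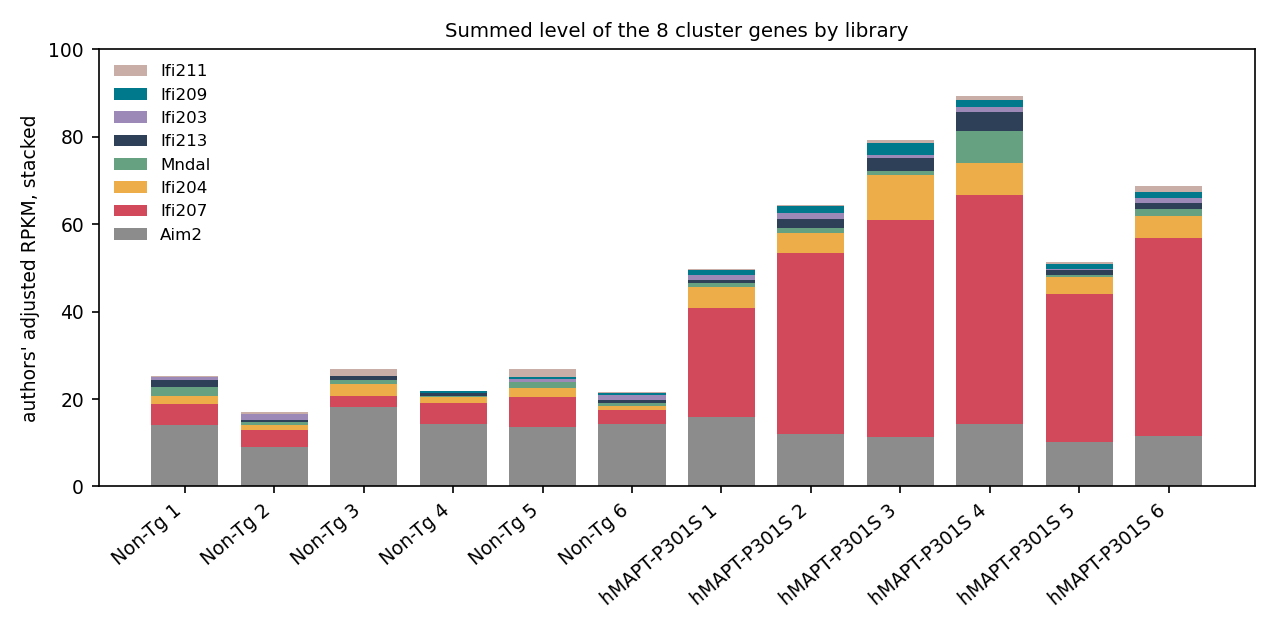
Stacked bars of the authors' adjusted RPKM of the 8 cluster genes in each of the 12 libraries. Aim2 (grey) has heights that overlap between the groups, while Ifi207 (red) takes 9.75% to 25.4% of the Non-Tg bars and 49.7% to 66.1% of the hMAPT-P301S bars.

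The members did not all follow one ranking of libraries. Within hMAPT-P301S, library 4 was the highest for 3 members and library 5 the lowest for 5 members. Library 1 was the lowest for the other 3, among them Ifi207 and Ifi213, and the highest for Aim2. Within Non-Tg, library 3 was the lowest for 3 members, Ifi207 among them, and the highest for 2, Ifi204 and Aim2. Spread between libraries exceeded counting error for every member: the biological coefficient of variation fitted by edgeR was 0.292 for Aim2, 0.322 for Ifi207, 0.421 for Ifi204, and 0.669 to 0.973 for the other 5, against 0.640 as the common value over all genes. The 5 other genes whose deviations from their group means were most like the mean deviation of the 8 members, over 12 libraries and 9782 genes with at least 5 CPM, were 5430427O19Rik (Pearson r = 0.922), Zbtb1 (0.918), Xrn2 (0.912), Gtf2a1 (0.909) and Cop1 (0.895). These points share library, depth and normalization, the members' mean weights noisy low genes equally with Ifi207, and none of the 5 genes was called between genotypes. The 5 were picked as the highest of 9782 values over 12 libraries, which favours a high r.

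Only uniquely aligned reads were counted, per the file headers, so the sequence that members share with other genes bears on what the counts can hold. In the longest GENCODE M21 transcript of each gene, 7.18% of the 50-base stretches of Ifi207 also occurred in a transcript of another gene, and 0.932% of those of Aim2. The share was 10.9% for Ifi203, 27.2% for Mndal, 27.9% for Ifi213, 30.2% for Ifi204 and 35.1% for Ifi209. It was highest for Ifi211 at 72.9%, of which 44.6 percentage points were shared with Ifi205 and 30.01 with Ifi204, some with both. The main partners were Ifi211 for Ifi204 (23.2%), Ifi214 for Ifi209 (34.7%) and Ifi208 for Ifi213 (22.9%). At 100 bases, the shares dropped to 0.813% for Ifi207, 16.8% for Ifi204 and 17.9% for Ifi209, but only to 56.9% for Ifi211. Repeats within a gene were not searched, so any in the repeat-rich linker of Ifi207 are left out of its share. A read wholly within a shared or repeated stretch may not align uniquely and then goes uncounted, so the counts of such genes may be too low. The value of Ifi211 is the most uncertain for this reason, and those of Ifi204, Ifi209, Ifi213 and Mndal carry the same limit to a lesser degree.

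**Figure D3:**
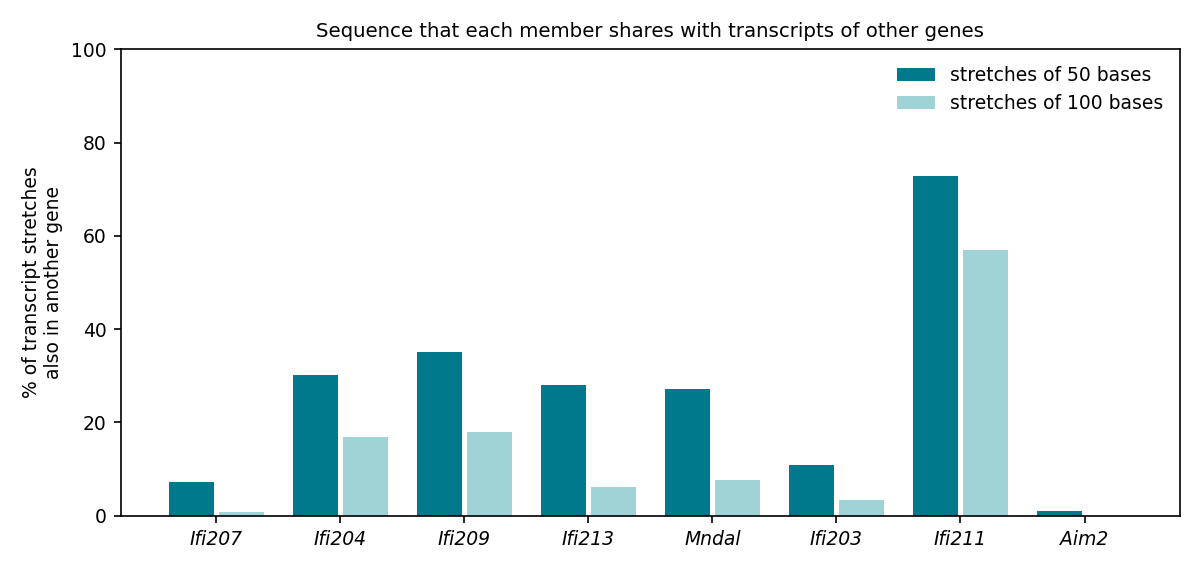
Percent of the 50-base (dark) and 100-base (light) stretches of each member's longest transcript that also occur in transcripts of another gene. Aim2 at 0.932% and Ifi207 at 7.18% lie lowest for 50 bases, and Ifi211 at 72.9% lies highest.

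Promoter windows show how alike these genes are where transcription starts. RefSeq windows on GRCm38.p6, from 250 bases before to 50 after a transcript start, were matched for 7 of the 8 members, all but Ifi204. The interferon-stimulated response element (ISRE), a site bound by Stat2 with Irf9 and by other interferon regulatory factors, was searched on both strands by its core, a pair of GAAA repeats with 2 bases of any kind between them. It occurred in 5 of the 7 members and in 3.44% of all 32851 windows (3.99% of 27025 genes). The stretches below are the matches of the 5 members with 10 bases on either side, 5′ to 3′ on the gene's strand, with the core in capitals, shown because the gene that rose most and genes that did not pass the test carry the same element. They lie at chr1:173741831-173741860, chr1:173913064-173913093, chr1:173599326-173599355, chr1:173880204-173880233 and chr1:173942508-173942537, all on the minus strand.
Ifi207: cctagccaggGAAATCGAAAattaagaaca
Ifi211: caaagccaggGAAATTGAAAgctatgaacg
Ifi213: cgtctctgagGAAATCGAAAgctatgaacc
Mndal: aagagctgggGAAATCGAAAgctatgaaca
Ifi203: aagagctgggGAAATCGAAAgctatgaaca
The cores begin at positions -41, -37, -73, -36 and -35 from the start, and the stretches of Mndal and Ifi203 are identical. A further window of Mndal holds a match on the other strand at -54.

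Ifi209, which rose, has no match to this core in its window. Its closest neighbour by sequence, Ifi214, has one, and the aligned 30-base stretches of the windows, which are 95.7% identical over all, are given below (chr1:173630770-173630799, plus strand, and chr1:173536017-173536046, minus strand). Capitals mark the bases of Ifi209 that differ from Ifi214, and the core in Ifi214. Against the core, Ifi209 carries the substitution G1T, counted from the first base of the core.
Ifi209: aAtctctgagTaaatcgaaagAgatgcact
Ifi214: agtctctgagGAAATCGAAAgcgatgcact
A missing match says only that these letters are not in this window. Aim2, which did not pass the test in either direction, has no ISRE core either, but has the PU.1 core GAGGAAGT, the site of a myeloid lineage factor, at position -113. That core was found in 1 of 7 members and in 3.2% of windows, and it is shown in capitals (chr1:173420480-173420509, plus strand).
Aim2: aaaccttattgGAGGAAGTgggtcactgag
The interferon-gamma activated site core TTCNNNGAA was found in 0 of 7 members and in 8.3% of windows.

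The pair Ifi207 and Ifi211 is shown at greater length because their promoters are close copies, while 1 of the genes passed the test and the other did not. The stretches are the parts that align with each other upstream of the outermost annotated starts, at chr1:173741855-173742059 and chr1:173913088-173913293 on the minus strand, and are 88.35% identical over 206 aligned columns. Capitals mark the bases that differ between them.
Ifi207: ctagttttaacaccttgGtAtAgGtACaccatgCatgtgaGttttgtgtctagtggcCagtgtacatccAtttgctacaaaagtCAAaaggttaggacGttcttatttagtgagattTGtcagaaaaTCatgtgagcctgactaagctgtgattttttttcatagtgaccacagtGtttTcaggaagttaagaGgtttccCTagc
Ifi211: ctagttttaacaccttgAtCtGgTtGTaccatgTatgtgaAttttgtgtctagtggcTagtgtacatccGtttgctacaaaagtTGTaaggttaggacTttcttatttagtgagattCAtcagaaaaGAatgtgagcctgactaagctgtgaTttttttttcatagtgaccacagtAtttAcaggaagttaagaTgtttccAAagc
Between these windows, Ifi207 rose by 3.23 on the log2 scale and Ifi211 had 0.10 with an interval of -1.72 to 1.91. The difference between both genes was not tested, and the value of Ifi211 moved to 1.55 with voom and 2.19 without the 3 shallowest libraries. The windows of Ifi203 and Mndal were 94.3% identical over 299 aligned columns, and neither gene passed the test.

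Of the PYHIN genes outside the 8, 6 had gene numbers in the tables. Ifi206 alone passed the low-count filter, with 8.71 ± 6.28 CPM in Non-Tg and 22.2 ± 12.9 in hMAPT-P301S (log2 fold change 1.37 ± 0.65, edgeR unadjusted p = 0.0465, adjusted p = 0.307). Over 267 aligned columns, its promoter window is 98.5% identical to that of Ifi213, which had 1.56 and did not pass the test either. The window of Ifi206 is also 98.94% identical, over 282 aligned columns, to that of Ifi208, which was near zero in both groups and was not tested. Ifi202b, which encodes a short protein that lacks the pyrin domain and opposes Aim2, had 13 counts over the Non-Tg libraries and 0 in all 6 hMAPT-P301S libraries. With a floor of 3 counts over the group in place of 0, it was 5.96-fold lower (without a filter, edgeR adjusted p = 0.0967). That ratio leaves out counting error and the spread between libraries in Non-Tg. Of the 13 counts, 6 came from Non-Tg 3, without which the ratio was 3.52-fold, and Non-Tg 1 and 2 held none. The remaining genes were near zero in both groups, with 10 and 20 counts over the 6 libraries for Ifi203-ps, 4 and 16 for Ifi205, 6 and 20 for Ifi208, and 1 and 14 for Ifi214.

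The listed inflammasome genes, which include partners of AIM2 but also the separate sensor gene Nlrp3, did not pass the test. Of 16 listed, 13 were tested, none was called by edgeR or by DESeq2, and 4 had an unadjusted p under 0.05, all lower in hMAPT-P301S (7.74% of all genes). Their median log2 fold change was -0.37. The 4 were the sensor gene Nlrp3 (-0.96, edgeR adjusted p = 0.130), the initiator caspase gene Casp8 (-0.56, adjusted p = 0.174), Il18 (-1.07 ± 0.46, adjusted p = 0.223) and Txnip, a thioredoxin-binding protein linked to NLRP3 (-0.69, adjusted p = 0.244). The adaptor gene Pycard had 0.19 ± 0.59 (adjusted p = 0.931), Casp1 0.61 ± 0.33 (adjusted p = 0.396) and Il1b -0.90 ± 0.82 (adjusted p = 0.678). Without hMAPT-P301S 2, 1 gene of the list was called lower.

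Of 31 genes for DNA sensing and the STING pathway, 26 were tested, 1 rose and none fell, with a median of 0.49. A count of 1 in 26 is near the share of all genes that rose (2.37%). At an unadjusted edgeR p under 0.05, 5 of the 26 were higher and 2 lower, against 8.02% and 7.74% of all genes. Ikbke, which encodes a kinase that acts beside TBK1, rose from 2.67 ± 3.48 to 28.8 ± 21.5 CPM (3.42 ± 0.83, edgeR adjusted p = 0.0146), though its groups overlapped. The DNA sensor gene Cgas was at 133 ± 31.5 and 85.8 ± 18.8 CPM (-0.63 ± 0.26, adjusted p = 0.219), and its effector Sting1 at 123 ± 51.9 and 65.9 ± 23.4 CPM (-0.91 ± 0.33, adjusted p = 0.139). The nucleic acid sensor gene Zbp1 had 2.39 (adjusted p = 0.0609), the transcription factor gene Irf7 2.20 ± 0.80 (adjusted p = 0.129) and Slc15a3, a lysosomal transporter of the solute carrier family, 0.95 (adjusted p = 0.133). Tbk1 had -0.15 and Irf3, the factor it phosphorylates, 0.06, with adjusted p of 0.889 and 0.971. No gene of this list was called without hMAPT-P301S 1 or without the 3 shallow libraries, and 2 were called without Non-Tg 1, 2 or 3.

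**Figure D4:**
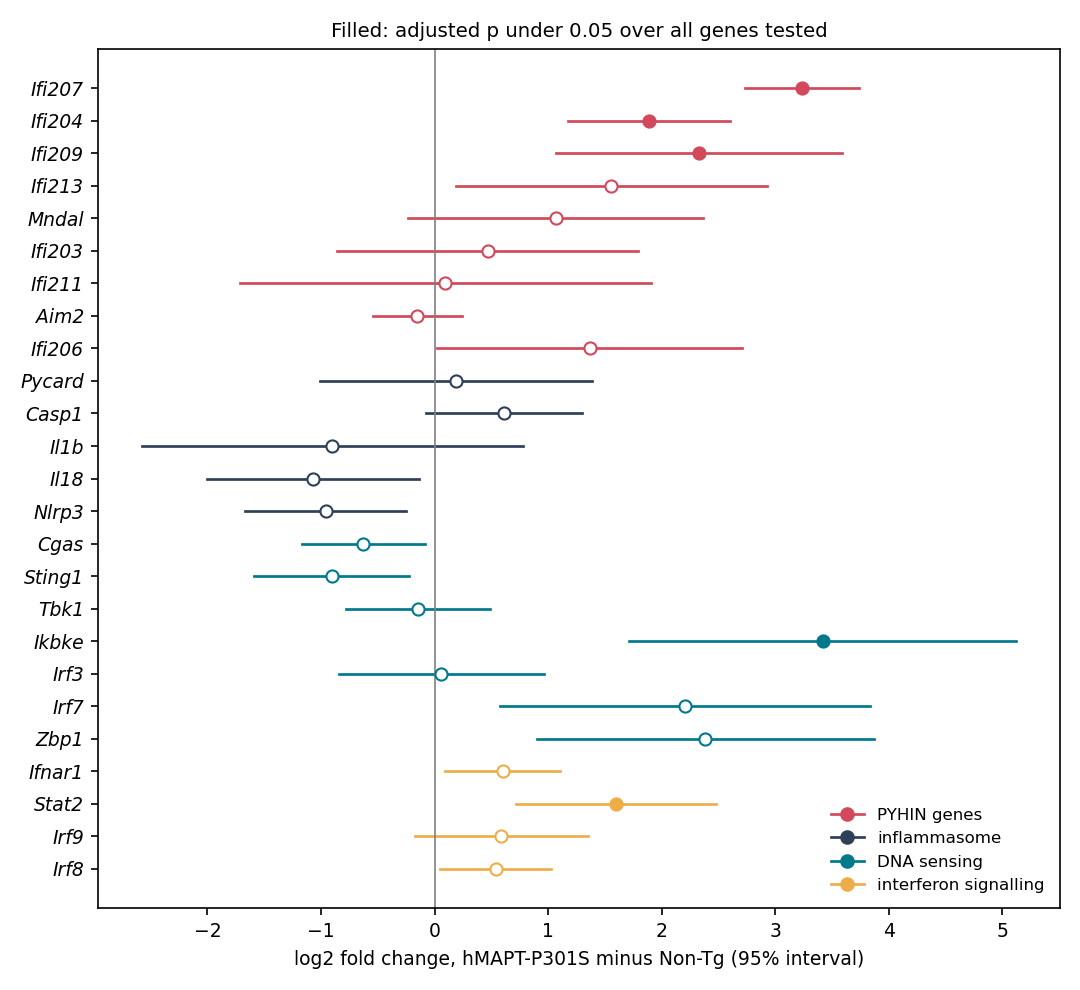
Log2 fold change (hMAPT-P301S minus Non-Tg, edgeR) with its 95% interval for the cluster genes, Ifi206 and named genes of 3 pathway lists; filled points have an adjusted p under 0.05. Ifi207 at 3.23, Ifi204 at 1.89 and Ifi209 at 2.33 are filled among the PYHIN genes, and Ikbke and Stat2 among the others.

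Type I interferon is a known inducer of the cluster in macrophages. Of 19 genes for receptors, kinases and factors, 18 were tested, 1 rose and none fell, with a median of 0.38, and this count too is near the 2.37% of all genes that rose. With an unadjusted edgeR p under 0.05, 4 of the 18 were higher and 0 lower, against 8.02% and 7.74% of all genes. Stat2, a transcription factor of type I interferon signalling, rose from 54.9 ± 35.7 to 166 ± 95.8 CPM, with overlapping groups (1.60 ± 0.42, edgeR adjusted p = 0.0345). The receptor gene Ifnar1 had 0.60 (adjusted p = 0.203), Irf8 0.54 (adjusted p = 0.252), Irf9 0.59 (adjusted p = 0.490) and Ptpn6, a phosphatase gene of blood cells, 0.92 (adjusted p = 0.285). No gene of this list was called without Non-Tg 2, 3, 4 or 6 and without hMAPT-P301S 3, 5 or 6. Of 34 other interferon response genes, 29 were tested, 5 rose (Sp100, Slfn5, Trim30a, Parp14 and Rtp4, by 1.81, 2.09, 1.06, 0.87 and 2.16) and none fell, against 2.37% and 1.5% of all genes, and 28 had positive fold changes, with a median of 1.14. An unadjusted edgeR p under 0.05 was reached by 17 of the 29 with a higher level and by 0 with a lower level. Only 3 of this list were called without Non-Tg 4 or without hMAPT-P301S 1, 3, 5 or 6. The fold change of Ifi207 was larger than that of each tested gene in this list, although these differences were not tested.

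Few of the genes around the cluster had enough counts to be tested. Of 46 genes within 1 Mb of the outermost members that are no PYHIN gene, 10 were tested, with a median of 0.06. Of these, 1 rose, where 2.37% of all genes rose. It was Slamf9, a myeloid receptor gene of the SLAM family, from 7.28 ± 5.44 to 32.3 ± 16.2 CPM (2.12 ± 0.57, edgeR adjusted p = 0.0321). No neighbour was called without Non-Tg 4, 5 or 6 or without hMAPT-P301S 1, 2, 4 or 6, and 2 were called without Non-Tg 1 or 2.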

How the data were processed

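RNA of sorted Cd11b+ brain cells was sequenced in 12 libraries, grouped by the genotype label. Per the submitters' processing notes, GSNAP and build GRCm38 were used; the labels used here state no version, counter, annotation or strand. The deposited count of each gene is its uniquely aligned reads, per the file headers. The deposited RPKM, adjusted by the authors with a size factor per library, equalled the count times a library and a gene constant (largest relative deviation 5.55e-15). RefSeq symbols matched 31049 of 36528 gene numbers (85.0%); the unmatched took at most 3.15% of a library's counts and were kept.

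Counts were filtered with filterByExpr (minimum count 10), scaled by TMM and tested with edgeR 4.0.16 in R 4.3.3 (quasi-likelihood, robust, no covariate), adjusted over 10022 genes by Benjamini-Hochberg with a threshold of 0.05. Errors of log2 fold changes are standard errors, and values after ± beside CPM and RPKM are SDs of 6 libraries. DESeq2 1.42.0, limma 3.58.1, other filters and scalings, and leaving out each library were alternatives. Library measures were compared over all 924 assignments of libraries to groups. None of 30 library pairs within a group was a repeat of the same library (lowest chi-square per degree of freedom 18.2). The script was tested on simulated data. It called 6.19% of genes simulated with a change of 1 on the log2 scale and 41.9% of those with 2, with 0 false calls. A gene that did not pass the test is thus not shown to be unchanged. Depth was 1196069 to 4145069 counts per library. Replicates are numbered in record order, which pairs nothing.

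Members and gene lists were chosen with earlier results of these data known. Named were all members, other PYHIN genes, up to 4 genes per list by smallest p, a preset set of pathway genes, called chromosome 1 neighbours (up to 4) and the 5 genes most alike in pattern; Cadm3 was added after its values were seen. The planned comparison of proteins was not made, and shared transcript sequence was described instead, a choice made after the files were seen. One gene of the lists is not reported here.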

Additional observations from a re-analysis of the deposited data

Results flagged for a closer look

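The CPM of 8 cluster genes in 2 groups gave 16 sets of 6 libraries. In 2 of these sets, the highest library stood apart from the rest of its group. The rule was a gap to the next library above 0.625 of the range of the group. How often chance gives such a gap in CPM was not tested, and the rule was not applied on the log2 scale. Ifi209 was at 43.8 CPM in hMAPT-P301S 3, and the next library of the group was at 24.5 CPM. Mndal was at 110 CPM in hMAPT-P301S 4, and the next library was at 26.9 CPM.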

How the results depend on the processing

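Ifi207 was called, and Aim2 kept its sign without being called, under each of 24 other settings. Genes called numbered 388 (61.3% higher), 1063 with no filter (38.7% higher), 1044 with DESeq2 (46.1% higher), 267 with the mitochondrial covariate (48.3% higher), 223 without the 3 shallow libraries, and 273 to 386 leaving out each library. The fits with the covariate and without the shallow libraries (Non-Tg 3, 4 and 5) were chosen after seeing the data. Members called were 2 to 3 leaving out each library and 1 with the covariate. DNA sensing genes called were 3 with no filter, 2 with DESeq2, voom and log2 RPKM plus 1 or 0.1, 0 without the shallow libraries, and 0 to 2 leaving out each library. Interferon response genes called were 8 with no filter, 12 with DESeq2, voom and both log2 RPKM fits, 3 with the covariate, and 3 to 7 leaving out each library. Interferon receptors and factors called were 0 with log2 RPKM plus 0.1, without the shallow libraries and with the covariate, and 0 to 1 leaving out each library. Chromosome 1 neighbours called were 3 with no filter and with DESeq2 and 2 without the robust option, of which 1 was higher in each fit. They were 0 without the shallow libraries and 0 to 2 leaving out each library. Inflammasome genes called were 0 to 1. Ifi209 was at 2.22 without the shallow libraries, 2.20 with the covariate, 0.97 with log2 RPKM plus 1, a scale that shrinks low genes, and 2.11 to 2.71 leaving out each library. Ifi204 was at 1.35, Ifi203 at 1.23, Ifi213 at 0.28 and Mndal at 0.12 with the covariate. Ifi203 was at -0.15 without the shallow libraries. Ifi211 was at -0.36 with the covariate, 1.55 with voom, 2.19 without the shallow libraries and -0.26 to 0.77 leaving out each library. The log2 difference of the summed RPKM was 1.52, against 1.13 for summed CPM, 0.44 without Ifi207 and 2.54 without Aim2. Causes were not tested. No scaling moved the median of all genes by 0.1. No paired analysis was possible because replicate numbers follow record order and pair no libraries. Counts were lowest for Ifi209, Ifi211 and Ifi213, with Non-Tg medians of 8, 6.5 and 12, where counting error alone gives a coefficient of variation of 29.7%, 30.2% and 23.4%, against 68.5%, 130% and 71.9% observed.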
